A study of Rattus norvegicus with 32 samples.

Results

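The comparison described here is between the 2 groups of the thioacetamide (TAA) experiment, which hold 10 of the 32 libraries of the series and were chosen by their sample labels alone, over all genes. The group labelled control has 5 libraries (replicates 1 to 5), and the group labelled TAA control rat, called TAA control here, has 5 (replicates 10, 12, 13, 14 and 15). Each library was made from polyadenylated RNA of liver sinusoidal endothelial cells (LSECs), which were separated from perfused and digested rat livers on an iodixanol gradient and lysed for RNA extraction. TAA is a compound toxic to hepatocytes that produces cirrhosis when given repeatedly, and the study's methods describe male rats injected intraperitoneally with TAA and control rats injected with saline, with cells taken some days after the last dose. Both labels contain the word control, and neither they nor the paper settle which group received TAA. The groups are therefore named by their labels, and every difference is given as TAA control minus control, without a statement on treatment. The labels name the strain of all 10 libraries as Wistar Han, whereas the design text of the series names Sprague-Dawley rats for this experiment. The age of the rats is not given in the sources used here, and the paper describes independent LSEC isolations, but the labels name no animal for each library. The p-values below weigh each difference against the spread between these libraries.

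LSECs line the sinusoids, the capillaries of the liver, with a fenestrated wall that lacks an organised basement membrane, and they take up waste molecules from blood through receptors such as stabilin-1 (Stab1), stabilin-2 (Stab2), the mannose receptor (Mrc1) and the Fc receptor Fcgr2b. In chronic liver injury LSECs are known to lose fenestrae and to take on features of ordinary capillaries, such as basement membrane and the proteins encoded by Cd34 and Vwf. LSECs also act on their neighbours: they release nitric oxide, Wnt ligands, bone morphogenetic proteins (BMPs) and hepatocyte growth factor, which reach stellate cells, the pericytes of the sinusoid, and hepatocytes.

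Total counts lay between 27589168 and 32631606 in control and between 25646531 and 30470027 in TAA control. The 10 most abundant genes took 4.94% to 5.49% of the counts in control and 6.83% to 7.94% in TAA control. Replicates 14 and 15 of TAA control were nearly the same library. A chi-square test of their counts over genes gave a statistic of 2.96 per degree of freedom, more than sampling noise alone gives, against 25.9 to 65.1 for the other pairs within TAA control, 26.5 to 92.0 within control and 162 to 334 between the groups. In 4 of the 5 TAA control libraries the replicate number in the title differs from that in the description, and the titles are followed here. Replicates 14 and 15 were kept as 2 libraries in the main comparison, and results that rest on them are also given with the pair averaged into 1 replicate or with both left out. Counting so similar a pair as 2 replicates may understate the spread within TAA control, so p-values of the main comparison may be too small. The principal components of log2 CPM (CPM being the counts of a gene relative to all counts of its library, scaled with TMM factors) separated the groups along the first axis, with 61.7% of the variance, and the second axis, with 9.23%, set replicates 14 and 15 apart from replicates 10, 12 and 13.

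**Figure D1:**
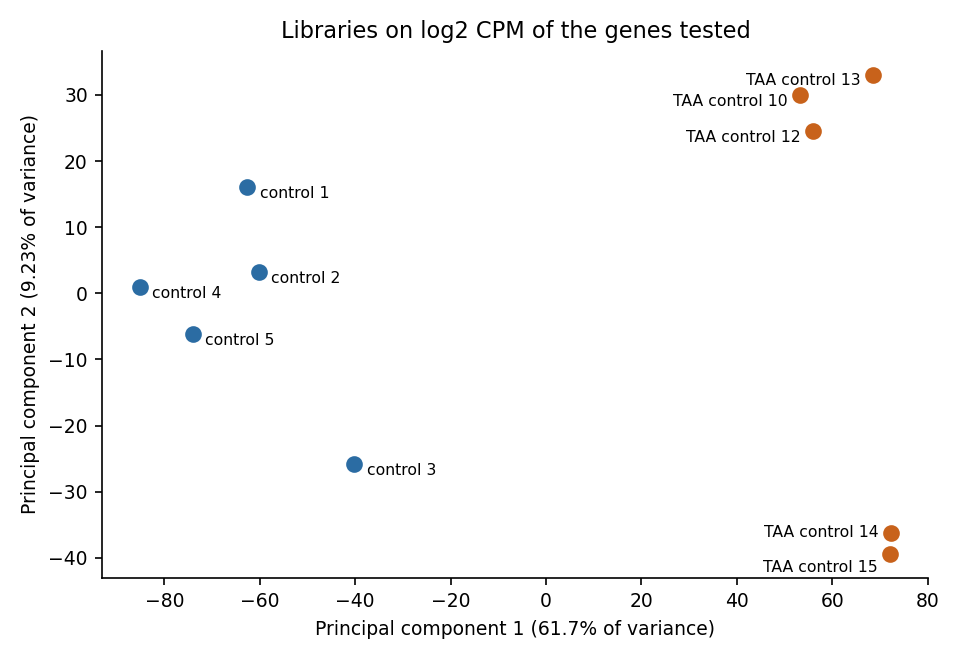
Principal components 1 (61.7% of the variance) and 2 (9.23%) of log2 CPM over the genes tested, with each point a library, control in blue and TAA control in orange. The 5 control libraries sit at -85.1 to -40.3 on the first axis and the 5 TAA control libraries at 53.3 to 72.3, and TAA control replicates 14 and 15 lie next to each other at -36.3 and -39.4 on the second axis.

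Of 32623 genes in the files, 14376 had enough counts for a test with limma-voom, and 3970 of them (27.6%) were called, which here means a change of more than 1.5-fold with a Benjamini-Hochberg adjusted p under 0.05. Of these, 1826 genes (12.7% of those tested) were higher and 2144 (14.9%) lower in TAA control. The changes in the lower direction were larger: 148 called genes were over 16-fold lower and 49 were over 16-fold higher, and at a fold above 4 the counts were 666 and 301. The median log2 fold change over all genes tested was 0.03, with a 5th percentile of -1.92 and a 95th percentile of 1.27. In 5092 genes (35.4%) the CPM of the groups did not overlap, with TAA control above in 2592 (18%) and below in 2500 (17.4%). With replicates 14 and 15 averaged, 3901 of 14557 genes were called, of which 3693 were called in the same direction with the pair kept as 2. With all 32 libraries of the series in 1 fit, whose error is estimated over all groups, 3569 of 15933 genes were called, of which 3200 were called in the same direction here. These percentages are the background against which the counts in each gene list below can be read. The libraries are of bulk RNA, so fewer cells of a type and less RNA per cell of that type cannot be told apart.

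The lymphatic chemokine Ccl21 (ENSRNOG00000034290), which guides lymphocytes and dendritic cells through its receptor CCR7, had the largest fall among the genes that qualified for naming, which had a mean of at least 3 on the log2 CPM scale and no overlap between the groups. Its level was 593, 621, 452, 2479.6 and 1249 CPM in control and 2.44, 1.97, 2.24, 5.49 and 5.38 CPM in TAA control, the libraries being listed here and below in the order of their replicate numbers. The groups were far apart, and control replicates 4 and 5 were the highest. The log2 fold change was -8.14 (standard error, SE, 0.623, adjusted p = 1.27e-05). Mmrn1 (ENSRNOG00000024986), which encodes the extracellular matrix and platelet protein multimerin-1, had a similar profile at 111, 111, 112, 393 and 304 CPM in control and 0.577, 0.3003, 0.362, 2.17 and 2.55 CPM in TAA control, again highest in control replicates 4 and 5 (log2 fold change -7.78, adjusted p = 0.000149). Igfbp5 (ENSRNOG00000017206), a secreted binding protein of insulin-like growth factors, stood at 548, 424, 184, 638 and 471 CPM in control and 5.30, 7.54, 4.77, 3.67 and 2.91 CPM in TAA control. Control replicate 3 was the lowest of its group and still far above all TAA control libraries, and the log2 fold change was -6.48 (adjusted p = 4.68e-06). The other genes among the 15 largest falls were Col6a3, Pdgfrb, Prss23, Lamb1, Adamts2, Col1a1, Ltbp2, Slc26a10, Ednrb, Fbln5, Wfdc1 and Igsf10, with log2 fold changes between -5.21 (Col6a3) and -4.48 (Igsf10). Several of these encode matrix proteins or enzymes that process matrix, among them the collagen chains Col6a3 and Col1a1, the laminin chain Lamb1, the procollagen peptidase Adamts2, the elastic fibre protein Fbln5 and Ltbp2, which binds to microfibrils. Their groups did not overlap, which the rule for naming them required.

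Among the 15 largest rises, the leading gene was Prf1 (ENSRNOG00000000562), which encodes perforin, the pore-forming protein of cytotoxic lymphocytes. It stood at 0.388, 2.10, 7.51, 0.422 and 2.86 CPM in control and 26.04, 44.1, 61.1, 61.3 and 59.2 CPM in TAA control. Control replicate 3 was the highest of the control libraries and was still well under the lowest TAA control library, replicate 10. The log2 fold change was 4.96 (SE 0.683, adjusted p = 0.000237). Genes of lymphocytes and other leukocytes made up most of the remaining list: Ccl5, Klrb1a, Cd7, Il2rb, Ccl3, Rgs1, Arhgap9, Spn, Fgr, Coro1a and Myo1g, with log2 fold changes from 2.98 (Myo1g) to 4.28 (Ccl5). Cntfr (ENSRNOG00000047307), the receptor subunit that binds ciliary neurotrophic factor, is best known from neurons. Its level was 3.84, 3.19, 2.76, 1.23 and 0.984 CPM in control and 36.8, 47.5, 41.2, 31.7 and 30.8 CPM in TAA control, lowest in control replicates 4 and 5 and, within TAA control, in replicates 14 and 15 (log2 fold change 4.16, adjusted p = 1.35e-05). Mylk3, a myosin light chain kinase best known from heart muscle, was at 1.02 to 5.54 CPM in control and 27.3 to 49.7 CPM in TAA control (log2 fold change 4.12). Mx1, an antiviral GTPase induced by interferon, was at 2.40, 4.31, 4.64, 3.45 and 4.15 CPM in control and 24.9, 16.2, 29.3, 62.9 and 58.5 CPM in TAA control (log2 fold change 3.16, adjusted p = 0.000647). The chemokine Ccl3 was at 9.27, 10.4, 13.5, 1.41 and 2.12 CPM in control and 33.1, 30.2, 18.7, 153 and 160.4 CPM in TAA control. Replicates 14 and 15 of TAA control were far above the other libraries of their group for Ccl3, and its log2 fold change of 3.39 (adjusted p = 0.0108) was 3.01 with the pair averaged (adjusted p = 0.0153).

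**Figure D2:**
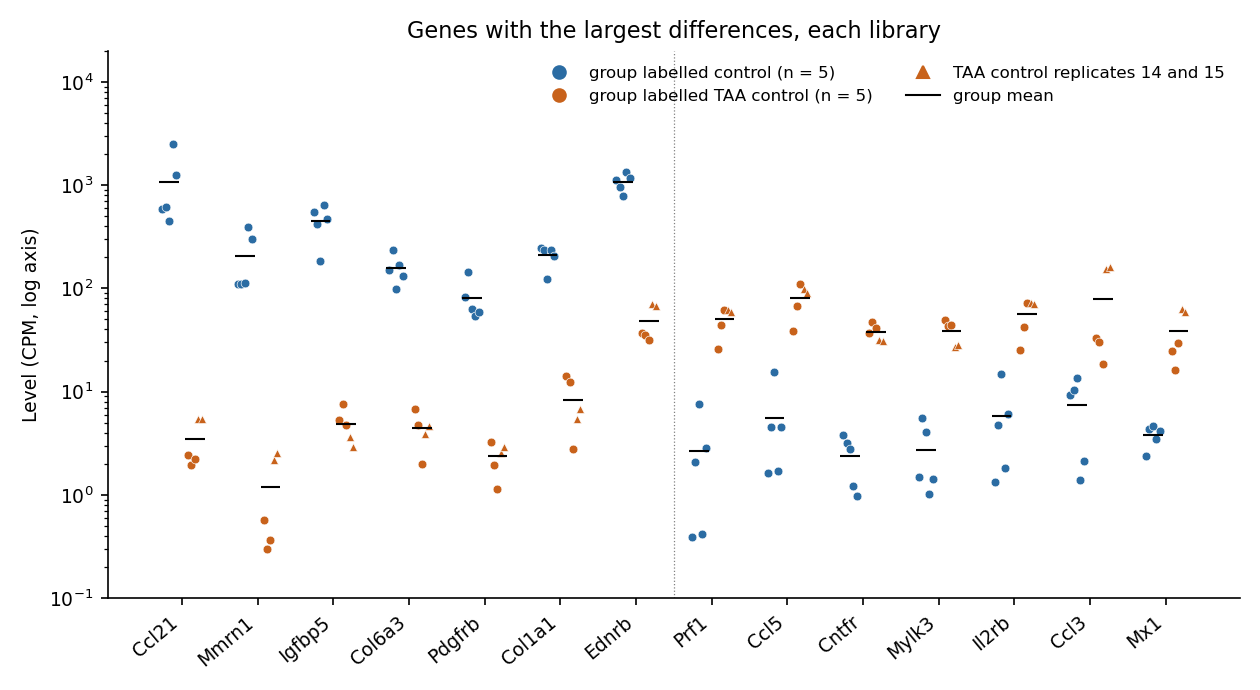
Level in CPM on a log axis of 14 genes from the 15 largest falls (left of the dotted line) and rises (right), with a point for each library, triangles for TAA control replicates 14 and 15 and a bar for the mean of each group of 5. For Ccl21 the control libraries lie at 452 to 2479.6 CPM and the TAA control libraries at 1.97 to 5.49 CPM, and for Prf1 at 0.388 to 7.51 CPM and 26.04 to 61.3 CPM.

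The identity of the cells was checked with 28 LSEC receptors and regulators, whose summed level was 27105 to 33668 CPM in control and 35273 to 44587 CPM in TAA control. Of the 28, 9 were higher in TAA control and 0 were lower (1 without control replicate 4 or TAA control replicate 10), with a median log2 fold change of 0.49. The defining scavenger receptors did not move together. Stab1 was at 1265, 1527, 1371, 1507 and 1125 CPM in control and 2382, 2362, 2465, 2233 and 2144 CPM in TAA control, without overlap (log2 fold change 0.77, adjusted p = 0.000136). Stab2, which takes up hyaluronan, was at 6571, 6270.5, 6858, 6112 and 6442 CPM in control and 5276, 4528, 4705, 3873 and 3766 CPM in TAA control. All control libraries were above all TAA control libraries for Stab2, but the log2 fold change of -0.55 (adjusted p = 0.00133) was short of the 1.5-fold threshold. Lyve1, another hyaluronan receptor, had a log2 fold change of 0.56 (adjusted p = 0.0123) that also fell short of the threshold and passed it with replicates 14 and 15 averaged (0.62, adjusted p = 0.0135). Fcgr2b, the Fc receptor that clears immune complexes, stood at 0.51 (adjusted p = 0.00324) on the same log2 scale and was not called.

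Among the 9 LSEC genes that were higher, the transcription factors Maf and Meis1 and the C-type lectins Clec4m and Clec1b had the largest differences. Meis1 was at 13.99, 15.6, 14.5, 12.7 and 13.9 CPM in control and 33.1, 33.6, 36.4, 33.8 and 33.6 CPM in TAA control, with a narrow spread in both groups (log2 fold change 1.27, adjusted p = 1.60e-06). Maf, a regulator of the sinusoidal endothelial programme, was at 150.4, 143, 96.6, 67.6 and 77.7 CPM in control and 282, 231, 297, 221 and 228 CPM in TAA control, lowest in control replicates 4 and 5 (log2 fold change 1.29, adjusted p = 0.00082). Clec4m, a lectin that binds glycans of pathogens, was at 25.9, 133, 39.9, 49.3 and 55.6 CPM in control and 223, 113, 168, 189.9 and 198 CPM in TAA control. The groups overlapped at control replicate 2 and TAA control replicate 12 (log2 fold change 1.74, adjusted p = 0.00274). Beside these and Stab1, the genes Clec1b, Ehd3, Dnase1l3, Gpr182 and Mrc1 were higher, with log2 fold changes of 1.11, 1.01, 0.95, 0.80 and 0.62. Gata4, the transcription factor that specifies LSECs, had 304 to 501 CPM in control and 553 to 584 CPM in TAA control, a log2 difference of 0.51 that was not called (adjusted p = 0.0102).

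Genes of capillary and large-vessel endothelium went mostly the other way, with 14 of 26 lower, 2 higher and a median log2 fold change of -0.92. Vwf, which encodes the platelet-binding von Willebrand factor, was at 2301, 2222, 1284, 1737 and 1615 CPM in control and 380.4, 413, 415, 451 and 405 CPM in TAA control. The TAA control libraries were close to each other and all far under the lowest control library, replicate 3 (log2 fold change -2.12, adjusted p = 5.59e-06). Cd34, a sialomucin of capillary endothelium, was at 21.004, 19.8, 11.8, 13.3 and 12.9 CPM in control and 5.33, 5.20, 4.28, 5.37 and 5.54 CPM in TAA control (log2 fold change -1.58, adjusted p = 0.00018). Fabp4, the fatty acid carrier of capillary endothelium, was at 394, 509, 450.2, 421 and 697 CPM in control and 39.9, 63.6, 37.7, 38.2 and 41.2 CPM in TAA control (log2 fold change -3.48, adjusted p = 1.49e-06). The apelin receptor Aplnr, the basement membrane laminin Lamb1 and the matrix protein Vwa1 had log2 fold changes of -5.12, -4.92 and -3.10. Plvap, the protein of the diaphragms that span endothelial pores, and the sialomucin Emcn were not called, with log2 fold changes of -0.11 (adjusted p = 0.664) and 0.07 (adjusted p = 0.622). Kit and Efnb2 were the 2 members that were higher (log2 fold changes 1.16 and 0.81).

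Genes shared by all endothelial cells showed a small net difference, with 4 of 23 higher, 3 lower and a median log2 fold change of 0.07. These counts were near the shares over all genes tested, 12.7% higher and 14.9% lower. Kdr, the main receptor for VEGF, was at 3634, 3411, 3289, 2355 and 2858 CPM in control and 6709, 5119.9, 5842, 4955 and 4837 CPM in TAA control (log2 fold change 0.82, adjusted p = 0.000687). Sox17 and Tal1, transcription factors of endothelium, and Clec14a, a surface glycoprotein, were also higher (log2 fold changes 0.92, 0.78 and 1.03). Ecscr, a membrane protein of endothelial cells, was lower at 99.2, 81.8, 87.1, 131 and 116 CPM in control and 36.3, 40.1, 36.4, 37.1 and 38.7 CPM in TAA control (log2 fold change -1.43). The junction protein Cdh5 and the receptor Tie1, present at 1922 to 2256 and 1697 to 2076 CPM in control, had log2 fold changes of -0.38 (adjusted p = 0.00228) and -0.21 (adjusted p = 0.0583) and were not called.

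**Figure D3:**
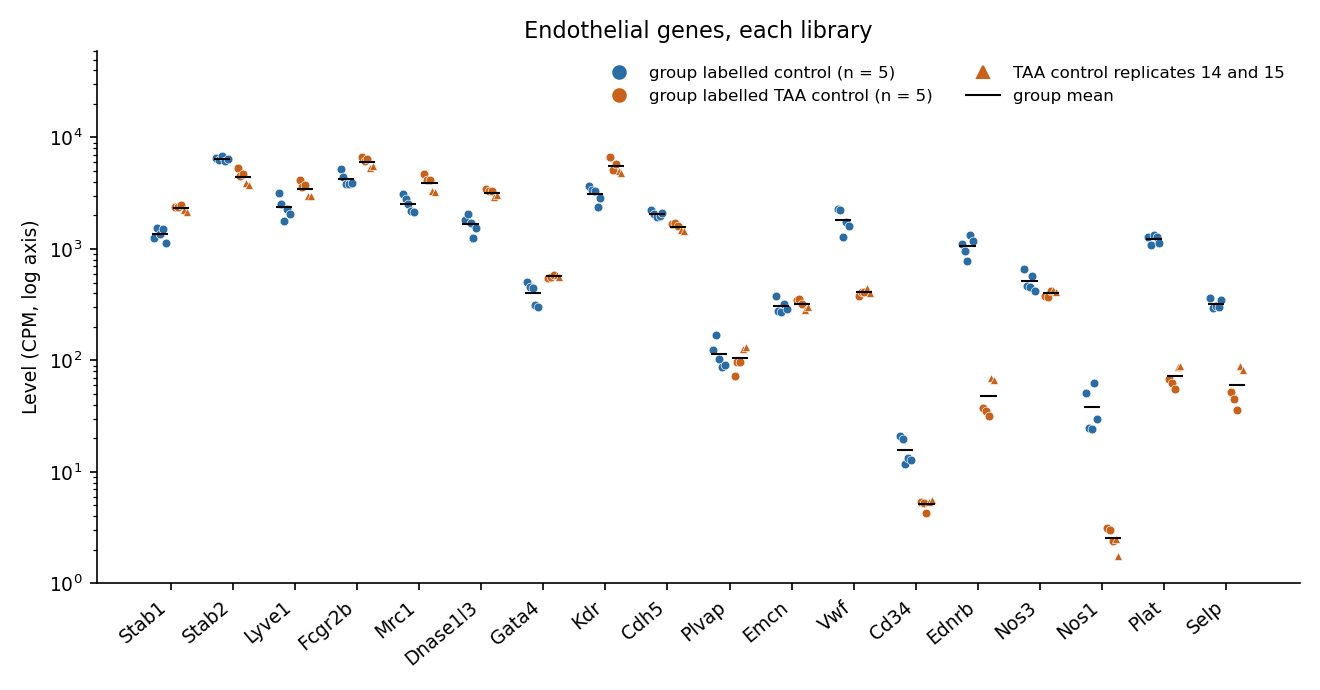
Level in CPM on a log axis of 18 endothelial genes, with a point for each library, triangles for TAA control replicates 14 and 15 and a bar for the mean of each group of 5. The ranges of Stab1 (1125 to 1527 CPM in control and 2144 to 2465 CPM in TAA control) lie closer together than those of Ednrb (779 to 1333 against 31.9 to 69.9 CPM) or Plat (1075 to 1334 against 55.2 to 89.5 CPM).

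Vasoactive genes were mostly lower in TAA control, with 11 of 19 members of the nitric oxide and endothelin list lower, 1 higher and a median log2 fold change of -0.96. Ednrb (ENSRNOG00000010997) encodes the endothelin receptor that endothelial cells carry, through which endothelin is cleared and nitric oxide is released. It stood at 1109.98, 956, 779, 1333 and 1184 CPM in control and 37.2, 35.3, 31.9, 69.9 and 67.3 CPM in TAA control. The groups did not overlap, replicates 14 and 15 were the highest of TAA control, and the log2 fold change was -4.54 (SE 0.256, adjusted p = 1.89e-06). Ednra, the endothelin receptor of contractile cells, was at 10.5, 12.7, 4.68, 5.74 and 7.90 CPM in control and 0.204, 0.2002, 0.198, 0.276 and 0.279 CPM in TAA control (log2 fold change -4.995, adjusted p = 9.89e-05). Edn1, which encodes the vasoconstrictor endothelin-1 itself, was at 28.9 to 65.95 CPM in control and 18.4 to 24.6 CPM in TAA control (log2 fold change -0.96). Of the nitric oxide synthases, Nos1, best known from neurons, was at 50.7, 24.7, 24.4, 62.96 and 30.1 CPM in control and 3.16, 3.003, 2.40, 2.49 and 1.75 CPM in TAA control (log2 fold change -3.81, adjusted p = 0.000109), whereas Nos3, the endothelial enzyme, was at 655, 467, 459, 567 and 418 CPM in control and 379, 368, 421, 429 and 412 CPM in TAA control. The groups overlapped for Nos3, and its log2 fold change of -0.34 (adjusted p = 0.0337) was not called. Gucy1a3, a subunit of the nitric oxide receptor guanylate cyclase, and Slc7a1, a transporter of arginine, were lower (log2 fold changes -2.54 and -2.31).

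The coagulation and fibrinolysis list had 18 of 23 members lower and 1 higher (0 without control replicate 1, 2, 3 or 4), with a median log2 fold change of -1.45, and its summed level was 7434 to 10059 CPM in control and 2769 to 3145 CPM in TAA control. Genes of activators and of inhibitors were both among those lower. Plat (ENSRNOG00000019018), which encodes tissue plasminogen activator, was at 1272, 1075, 1334, 1287 and 1131 CPM in control and 68.3, 62.4, 55.2, 87.3 and 89.5 CPM in TAA control. Each group was tight beside the distance between them (log2 fold change -4.09, adjusted p = 2.31e-07). Serpine2, a protease inhibitor that blocks thrombin, was at 192, 163, 142, 188 and 223 CPM in control and 16.6, 20.1, 15.7, 12.7 and 13.5 CPM in TAA control (log2 fold change -3.52, adjusted p = 3.52e-07). F2rl1, a receptor cleaved by proteases, and Adamts13, which cuts von Willebrand factor and is made in liver mainly by stellate cells, had log2 fold changes of -4.23 and -3.69. The clotting factor gene F8, which LSECs express, was not called (374 to 413 CPM in control, 469.7 to 506 CPM in TAA control, log2 fold change 0.29).

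In the adherens and tight junction list 6 of 22 members were lower and 1 was higher (median -0.38 on the log2 scale). Cldn5, the claudin of tight endothelial junctions, was at 16.1, 16.7, 7.87, 43.7 and 21.9 CPM in control and 0.509, 0.3003, 0.823, 0.790 and 0.438 CPM in TAA control (log2 fold change -5.06, adjusted p = 0.00102), and the gap junction protein gene Gja1 was at 179.9, 162, 149.999, 288 and 231 CPM in control and 15.3, 12.7, 12.2, 19.2 and 19.2 CPM in TAA control (log2 fold change -3.68, adjusted p = 1.74e-06). Gja4, another connexin, was lower (log2 fold change -1.38). Gja5, a further connexin (log2 fold change -1.14), lost its call without TAA control replicate 12, and Pard3, a polarity protein gene and the 1 member that was higher (log2 fold change 0.71), lost it with replicates 14 and 15 left out. Of the leukocyte adhesion genes, the selectins were lower, with Selp at 364, 293, 308, 303 and 348 CPM in control and 52.01, 44.9, 35.9, 88.7 and 81.4 CPM in TAA control (log2 fold change -2.50, adjusted p = 2.81e-05) and Sele at 134, 79.9, 63.6, 50.3 and 78.9 CPM in control and 16.3, 19.6, 11.9, 13.7 and 14.9 CPM in TAA control (log2 fold change -2.35, adjusted p = 5.97e-05). Selectins slow leukocytes on the vessel wall, and the adhesion enzyme gene Aoc3 was lower as well (-1.27). The 3 adhesion genes that were higher, Icam1, Cd44 and Selplg, were not called with replicates 14 and 15 averaged (adjusted p = 0.0673 for Cd44 and 0.0657 for Selplg, and a log2 fold change of 0.50 for Icam1), and Cd44 lost its call in 6 of 10 omissions of a single library and Selplg in 7. Cd44, a receptor for hyaluronan, was at 10.4, 10.8, 17.3, 11.3 and 10.3 CPM in control and 14.1, 20.3, 16.95, 59.5 and 60.1 CPM in TAA control, high in replicates 14 and 15 alone.

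Guidance cues and their receptors had 15 of 38 members lower and 5 higher (median log2 fold change -0.40), the latter count being 3 with replicates 14 and 15 left out. The secreted semaphorin Sema3a, which acts on endothelial and nerve cells through neuropilin and plexin receptors, was at 17.8, 19.03, 11.4, 53.1 and 21.9 CPM in control and 0.306, 0.167, 0.198, 0.276 and 0.797 CPM in TAA control. Its log2 fold change was -6.12 (adjusted p = 0.000658), and control replicate 4 was the highest library. Sema3d, Robo2 and Plxnb1 were lower (log2 fold changes -3.73, -4.63 and -2.93), while Sema4d, a semaphorin abundant on T cells, was higher (log2 fold change 2.83), at 1.13 to 5.41 CPM in control and 8.62 to 22.5 CPM in TAA control.

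The signals by which LSECs act on their neighbours were split by gene. In the Wnt and R-spondin list 8 of 30 members were lower and 5 higher, the latter count being 3 without control replicate 4 or 5 or TAA control replicate 13 or 14 and with replicates 14 and 15 averaged. Rspo3, which amplifies Wnt signals to pericentral hepatocytes, was at 17.2, 28.2, 13.5, 5.45 and 10.8 CPM in control and 30.4, 35.2, 29.6, 41.5 and 38.3 CPM in TAA control (log2 fold change 1.41, adjusted p = 0.0041), and control replicate 4 had the lowest level. Wnt9b, an LSEC ligand of the same pathway, was lower at 199.6, 93.7, 57.5, 148 and 62.7 CPM in control and 31.3, 46.4, 42.2, 38.03 and 38.7 CPM in TAA control (log2 fold change -1.36, adjusted p = 0.00451). Wnt2, the other main ligand of these cells, overlapped between the groups at 81.3 to 171 and 90.5 to 107 CPM and was not called (log2 fold change -0.16, adjusted p = 0.485). The ligand gene Wnt4 and the pathway inhibitor gene Nkd1 were lower (log2 fold changes -2.84 and -2.96), and the receptor gene Fzd1 was higher (log2 fold change 1.44).

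Among 25 BMP and endoglin genes, 6 were higher and 8 lower, and 5 lower with all 32 libraries in 1 fit. Bmp2 was at 691, 543, 517, 311 and 289 CPM in control and 1337, 1404, 1357, 1256 and 1196 CPM in TAA control. It was lowest in control replicates 4 and 5, and the log2 fold change was 1.55 (adjusted p = 0.000336). Bmp6, the BMP by which LSECs control hepcidin and so iron, was at 42.9 to 65.3 CPM in control and 72.5 to 81.3 CPM in TAA control, a log2 difference of 0.54 (adjusted p = 0.0015) under the fold threshold. Smad6, an inhibitory target of BMP signals, was higher (log2 fold change 1.35). Gdf2 and Bmp10, which encode the circulating ligands BMP9 and BMP10 and are made in liver by stellate cells, were lower (log2 fold changes -1.30 and -2.63), and Bmp10 was not called with replicates 14 and 15 left out. The type I receptor gene Bmpr1a was lower (log2 fold change -2.65). Hgf, which encodes hepatocyte growth factor, was at 815, 1014, 1199.95, 824 and 853 CPM in control and 173, 389, 185, 287 and 288 CPM in TAA control (log2 fold change -1.88, adjusted p = 0.000106). Hgf is also on the list of stellate cell and fibroblast markers, of which 27 of 32 were lower and 1 higher. The part of those cells in its level was not tested.

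The Notch list had 5 of 20 members lower and 3 higher. The receptor gene Notch3 and the target gene Heyl, both typical of mural cells, were at 7.55 to 28.5 and 4.96 to 10.1 CPM in control and 0.1001 to 0.677 and 0.158 to 0.478 CPM in TAA control (log2 fold changes -5.24 and -4.73). The ligand genes Jag2 and Dll1 were lower (log2 fold changes -2.0002 and -1.58), and Lfng, an enzyme that modifies Notch receptors, was higher (log2 fold change 1.59). In the VEGF, angiopoietin and apelin list 8 of 19 were lower and 1, Kdr, was higher (2 without control replicate 1 or 2 or TAA control replicate 12 or 14). The lymphatic growth factor genes Vegfc and Vegfd were lower, with Vegfc at 44.9, 44.8, 29.96, 33.6 and 33.7 CPM in control and 6.11, 7.37, 5.86, 6.75 and 7.53 CPM in TAA control (log2 fold change -2.46, adjusted p = 4.68e-06) and Vegfd with a log2 fold change of -2.78. Angpt2, a destabilising ligand of vessels, was at 14.7 to 34.7 CPM in control and 18.1 to 37.6 CPM in TAA control and was not called (log2 fold change 0.09).

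TGF-beta genes had 13 of 23 members lower and 1 higher, with a median log2 fold change of -0.96. Inhbb, which encodes a subunit of activin B, was at 83.5, 127, 162, 159.9 and 159 CPM in control and 19.1, 48.9, 17.8, 18.4 and 20.2 CPM in TAA control, and TAA control replicate 12 stood above the others of its group (log2 fold change -2.55, adjusted p = 7.77e-05). Thbs1, an activator of latent TGF-beta, was at 713 to 1302 CPM in control and 164 to 327 CPM in TAA control (log2 fold change -1.92), and the latent TGF-beta binding protein gene Ltbp1 was lower (log2 fold change -2.26). The 1 member that was higher, Cyr61, a matricellular protein, was at 266, 449.9, 319, 211 and 211 CPM in control and 659.6, 788, 1019, 1200.5 and 1202 CPM in TAA control (log2 fold change 1.76, adjusted p = 0.000212), while its relative Ctgf was not called (log2 fold change 0.28, adjusted p = 0.237). In the list of insulin-like growth factors 10 of 14 members were lower and 0 higher, with a median of -0.91. Beside Igfbp5, the binding protein genes Igfbp1 and Igfbp3 were lower (log2 fold changes -4.22 and -2.69, the former not called with all 32 libraries in 1 fit), and the insulin receptor gene Insr was at 54.4, 42.6, 30.1, 73.7 and 38.6 CPM in control and 6.99, 5.97, 6.19, 9.79 and 8.49 CPM in TAA control (log2 fold change -2.65, adjusted p = 4.81e-05).

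Markers of stellate cells and fibroblasts had 27 of 32 members lower and 1 higher (0 without control replicate 3 or 5 or TAA control replicate 10, 12 or 13), with a median log2 fold change of -3.16. Their summed level was 4807 to 9324 CPM in control, highest in control replicate 2, and 1191 to 1618 CPM in TAA control. Pdgfrb, the PDGF receptor of pericytes, was at 82.6, 145, 62.5, 54.1 and 59.6 CPM in control and 3.26, 1.94, 1.15, 2.57 and 2.91 CPM in TAA control (log2 fold change -5.09, adjusted p = 2.70e-05). Col1a1, the main chain of scar collagen, was at 243, 235, 123, 237 and 204 CPM in control and 14.2, 12.3, 2.77, 5.45 and 6.73 CPM in TAA control. Control replicate 3 was the lowest control library and was far above the highest TAA control library, replicate 10 (log2 fold change -4.83, adjusted p = 1.35e-05). Acta2, the smooth muscle actin of activated stellate cells, was at 25.5, 89.1, 21.98, 15.8 and 19.4 CPM in control and 0.917, 0.434, 0.329, 0.0790 and 0.359 CPM in TAA control (log2 fold change -6.25, adjusted p = 0.00201), with control replicate 2 above the rest. The intermediate filament gene Des was lower (log2 fold change -2.59). Lrat, the enzyme with which stellate cells store vitamin A, was at 116, 220.1, 123, 50.9 and 102 CPM in control and 90.1, 87.5, 105, 96.5 and 93.4 CPM in TAA control and was not called (log2 fold change -0.23, adjusted p = 0.544). None of the defining markers was at 0 in every library. These markers fell alongside members of the capillary endothelium, nitric oxide and endothelin, coagulation, TGF-beta, matrix, Notch, contractile and guidance lists. The part of stellate cells and fibroblasts in those results was not tested.

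Of 40 collagens and matrix remodelling genes, 30 were lower and 3 higher (5 without control replicate 1), with a median log2 fold change of -2.09 and a summed level of 14413 to 22032 CPM in control and 7911 to 9427 CPM in TAA control. The crosslinking enzyme gene Loxl1 was at 17.8, 24.1, 13.2, 19.5 and 18.7 CPM in control and 0.917, 0.3003, 0.230, 0.434 and 0.598 CPM in TAA control (log2 fold change -5.33, adjusted p = 1.31e-05). The collagen chains Col6a3, Col12a1 and Col8a1 were lower (log2 fold changes -5.21, -5.16 and -4.78). The 3 members that were higher were Mmp9, a gelatinase abundant in leukocytes, at 0.423 to 1.89 CPM in control and 6.62 to 13.4 CPM in TAA control, and the basement membrane chains Col4a3 and Col4a4 (log2 fold changes 3.27, 1.96 and 1.17).

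Contractile genes had 11 of 28 members lower and 1 higher (median -0.22 on the log2 scale). Tagln, an actin-binding protein of smooth muscle, was at 39.7, 105, 40.7, 27.03 and 29.04 CPM in control and 3.94, 3.57, 2.21, 3.79 and 4.10 CPM in TAA control (log2 fold change -3.62), and the myosin chain gene Myl9 and the actin-binding protein gene Cald1 were lower (log2 fold changes -1.94 and -1.23). The tropomyosin gene Tpm1, whose product stabilises actin filaments, was at 42.04, 73.4, 34.4, 31.7 and 34.4 CPM in control and 29.6, 25.3, 25.6, 21.3 and 22.8 CPM in TAA control. Control replicate 2 was the highest library, and the log2 fold change of -0.72 (adjusted p = 0.0161) was no longer called without it or with TAA control replicates 14 and 15 left out (adjusted p = 0.0877). Tpm2 was at 7.94 to 13.8 CPM in control and 9.88 to 12.02 CPM in TAA control and was not called (log2 fold change 0.11, adjusted p = 0.554). In the list of extracellular vesicle biogenesis 5 of 43 members were lower and 2 higher, against 27.6% called in either direction over all genes. The tetraspanin gene Cd9 was at 54.3, 40.3, 31.2, 81.8 and 55.7 CPM in control and 19.8, 16.6, 25.5, 34.2 and 31.7 CPM in TAA control (log2 fold change -1.03, adjusted p = 0.00875), and Rab3a, a GTPase of vesicle release, was at 2.90 to 4.24 and 4.72 to 6.88 CPM (log2 fold change 0.75, adjusted p = 0.00212). Cd81, Flot2, Mvb12a and Mvb12b, a tetraspanin, a flotillin and ESCRT-I subunits, were not called, with log2 fold changes of 0.19, 0.10, 0.12 and -0.01.

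Markers of T and NK cells were higher in TAA control in 17 of 20 members, and 0 were lower, with a median log2 fold change of 3.83. The counts were the same with replicates 14 and 15 averaged. Their summed level was 49.6 to 133 CPM in control and 258 to 571 CPM in TAA control, without overlap. The granzyme gene Gzma, a protease of cytotoxic granules, was at 0.423, 1.12, 3.66, 0.211 and 1.13 CPM in control and 26.5, 36.1, 56.9, 53.6 and 51.9 CPM in TAA control, with control replicate 3 the highest of the control libraries (log2 fold change 5.64, adjusted p = 8.09e-05). Gzmb and Nkg7, of the same granules, and the chemokine Xcl1 were higher (log2 fold changes 5.49, 4.34 and 5.47), the value of Gzmb lying between 4.64 and 5.96 as single libraries were left out. Of the defining markers, Cd247, the zeta chain of the T cell receptor that NK cells also use, was higher at 0, 0.280, 0.617, 0.0352 and 0.209 CPM in control and 1.46, 2.14, 4.74, 3.75 and 3.31 CPM in TAA control (log2 fold change 4.42), and Cd3d had too few counts for a test, with 0 to 0.326 CPM in control and 0.0667 to 0.434 CPM in TAA control.

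Macrophage genes had 6 of 24 members higher and 1, the matrix protein gene Spp1, lower (log2 fold change -2.07), with a median log2 fold change of 1.24, and the number higher was 4 with replicates 14 and 15 averaged and 2 with both left out. The number of called members, 7, was 4 without control replicate 2 or without TAA control replicate 10 and 12 without TAA control replicate 13. Lyz2, the lysozyme of macrophages, was at 28.2, 43.6, 68.1, 10.98 and 22.5 CPM in control and 79.5, 93.8, 37.2, 281 and 302 CPM in TAA control. TAA control replicates 14 and 15 were well above the rest of their group, and replicate 13 lay within the control range (log2 fold change 2.05, adjusted p = 0.0192, and 0.0984 with both left out). The signalling adaptor genes Tyrobp and Fcer1g were higher (log2 fold changes 2.40 and 2.34), and Csf1r, the receptor for macrophage growth factor, was higher (log2 fold change 1.85, adjusted p = 0.0103, and 0.0521 with both left out). Fcna, which encodes the lectin ficolin-A (log2 fold change 1.72), lost its call in 6 of 10 omissions of a single library. Beside Csf1r, the defining markers Clec4f, Vsig4 and Cd163 of Kupffer cells, the resident macrophages of the liver, were not called: Clec4f was at 27.03, 15.5, 28.5, 1.94 and 2.98 CPM in control and 44.8, 20.8, 13.5, 44.03 and 53.9 CPM in TAA control (log2 fold change 1.78, adjusted p = 0.063), and Vsig4 and Cd163 had log2 fold changes of 1.49 and 1.09. Control replicates 4 and 5 were the lowest for all 3 of these.

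Genes of MHC class II presentation, used by macrophages, dendritic cells and B cells to show antigen, were higher in 8 of 13 members and lower in 1. With replicates 14 and 15 averaged, 1 was higher and 1 lower, and edgeR and DESeq2 called 4 and 5 of the 13 in all. The number of called members, 9, was 2 or 3 without control replicate 1, 2, 4 or 5 or without TAA control replicate 10, 14 or 15. Cd74, the chain that escorts class II molecules, was at 26.5, 41.5, 169.9, 12.1 and 43.4 CPM in control and 125, 93.1, 58.9, 249 and 277 CPM in TAA control. Control replicate 3 was above 3 of the 5 TAA control libraries, and the adjusted p was 0.0378 with the pair kept as 2 and 0.0825 with it averaged. The class II genes, which form a family of similar sequences whose reads the counting may have split uncertainly, moved alike: RT1-Bb, RT1-Da, RT1-Ba and RT1-Db1 had log2 fold changes of 1.86, 1.78, 1.77 and 1.89 that were not called with the pair averaged. The B cell list had 1 of 7 members higher, Cd22, which lost its call without control replicate 4 or 5, and 1 lower, and Cd79a, a defining marker, was not called (log2 fold change -1.57, adjusted p = 0.201). The dendritic cell list had 2 of 9 higher, Zbtb46 (0.77) and Cd83 (0.87, not called with both replicates 14 and 15 left out), and the neutrophil list had Mmp9 higher and Lcn2 lower of 3 tested, the latter not called with the pair averaged (adjusted p = 0.0503). The list of erythroid cells and platelets had 0 of 4 called by limma-voom, 0 at an unadjusted p under 0.05 with the same fold, and 1 by edgeR and by DESeq2. With both replicates 14 and 15 left out, 2 of its members were lower. The summed level of this list was 55.6 and 96.2 CPM in these 2 replicates and 9.30 to 15.1 CPM in TAA control replicates 10, 12 and 13. In control it was 12.8 to 28.5 CPM.

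Hepatocyte genes were lower in 18 of 30 members and higher in 2 (11 and 0 with all 32 libraries in 1 fit), with a median log2 fold change of -1.23 and a summed level of 2929.9 to 7375 CPM in control and 893 to 2031 CPM in TAA control. Alb, which encodes albumin, was at 1598, 1835, 1103, 2074 and 3223 CPM in control and 648, 529.8, 724, 281 and 300.5 CPM in TAA control. Control replicate 5 was the highest and TAA control replicates 14 and 15 were the lowest (log2 fold change -2.005, adjusted p = 0.000687). The fibrinogen chains Fga and Fgg, the apolipoprotein gene Apoa1 and the urea cycle enzyme gene Cps1 were lower (log2 fold changes -2.81, -2.64, -2.47 and -2.98). The hepatocyte transcription factor gene Hnf4a was not called (log2 fold change -0.83, adjusted p = 0.0889). Against the list, Cyp2c11, the male-specific steroid hydroxylase of rat liver, was higher at 0.881, 3.99, 3.88, 0.282 and 2.65 CPM in control and 26.3, 23.5, 22.7, 9.44 and 11.2 CPM in TAA control (log2 fold change 3.42, adjusted p = 0.00183), a value that lay between 2.82 and 3.73 as single libraries were left out and was not called with all 32 libraries in 1 fit. Its close relatives in the Cyp2c family may share reads with it, so its level is uncertain. Apoa2, the other member that was higher, had a log2 fold change of 2.13.

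All 12 cholangiocyte genes tested were lower, with a median log2 fold change of -2.16, although the list's summed level was low in both groups, at 50.2 to 103 CPM in control and 15.9 to 25.4 CPM in TAA control. With replicates 14 and 15 left out, 11 of the 12 were lower, and with all 32 libraries in 1 fit 7. Epcam, an adhesion protein of bile duct epithelium, was at 1.62, 2.52, 3.12, 2.99 and 4.74 CPM in control and 0.373, 0.467, 0.494, 0.948 and 0.797 CPM in TAA control (log2 fold change -2.29, adjusted p = 0.000687), and the stem cell glycoprotein gene Prom1 was at 2.71, 2.91, 2.07, 2.92 and 2.59 CPM in control and 0.306, 0.467, 0.263, 0.395 and 0.478 CPM in TAA control (log2 fold change -2.77, adjusted p = 1.65e-05). The keratin genes Krt18, Krt8 and Krt19 were lower (log2 fold changes -2.24, -2.09 and -1.30). Mesothelial genes had 4 of 7 members lower, 3 with replicates 14 and 15 averaged, and 2 with both left out or without control replicate 3 or 5 or TAA control replicate 12 or 14. Gpm6a was at 1.83, 2.42, 2.47, 2.08 and 2.48 CPM in control and 1.02, 0.467, 0.362, 0.711 and 0.677 CPM in TAA control (log2 fold change -1.86) and Wt1, a transcription factor of mesothelium and stellate cells, was lower (log2 fold change -2.65). Msln, which encodes the mesothelial surface protein mesothelin (log2 fold change -1.13), lost its call in 5 of 10 omissions of a single library. None of the defining markers tested for hepatocytes, cholangiocytes or mesothelial cells was at 0 in all libraries, and the part of these cells in the other results was not tested.

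**Figure D4:**
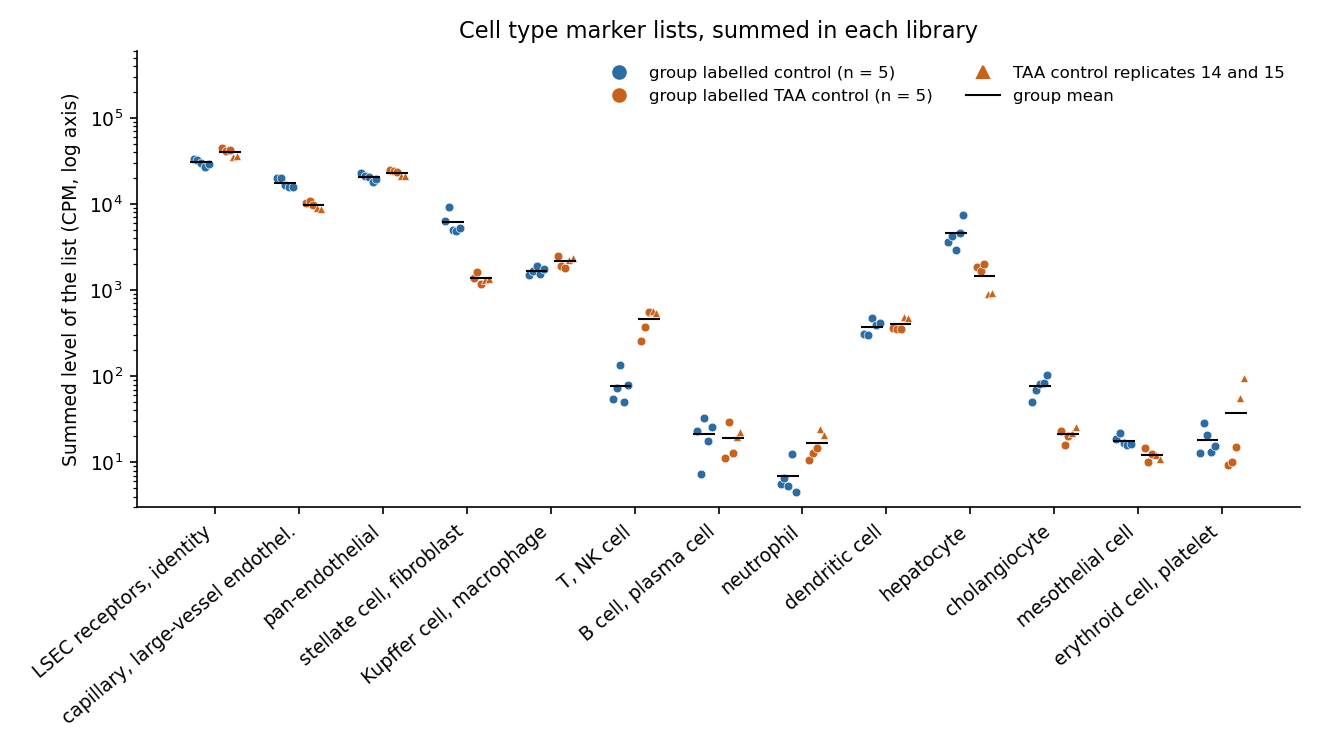
Summed level in CPM, on a log axis, of the members of each of 13 cell type marker lists, with a point for each library, triangles for TAA control replicates 14 and 15 and a bar for the mean of each group of 5. The stellate cell and fibroblast list lies at 4807 to 9324 CPM in control and 1191 to 1618 CPM in TAA control, and the T and NK cell list at 49.6 to 133 CPM and 258 to 571 CPM.

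Immediate-early genes, which are transcribed within minutes of a stimulus and are also known to respond to tissue dissociation, were higher in 19 of 33 members and lower in 4, with a median log2 fold change of 0.80. Their summed level was 20022 to 39718 CPM in control and 58309 to 81773 CPM in TAA control. The transcription factor gene Fos was at 1180.4, 1863, 1448, 506 and 523 CPM in control and 3467, 4128, 4858, 4816 and 4803 CPM in TAA control, with control replicates 4 and 5 the lowest (log2 fold change 2.18, adjusted p = 0.000723). Dusp1, a phosphatase that switches off MAP kinases, was at 1108, 1312, 830.1, 433 and 419.9 CPM in control and 2618, 2998, 4072, 4392 and 4434 CPM in TAA control (log2 fold change 2.29, adjusted p = 0.000366), and Ier2 was at 451, 585, 475, 212 and 222 CPM in control and 1185, 1353, 1711, 2177 and 2242 CPM in TAA control (log2 fold change 2.23, adjusted p = 0.000285). Control replicates 4 and 5 were the lowest of all libraries for both. Myc and Dusp2 went the other way: Myc, the growth-promoting transcription factor, was at 287, 221, 239.8, 345 and 249 CPM in control and 37.3, 58.2, 35.8, 67.8 and 67.5 CPM in TAA control (log2 fold change -2.37, adjusted p = 2.05e-05), and Dusp2 was lower (log2 fold change -2.32).

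The promoters of these genes are known for cyclic AMP response elements (CRE, TGACGTCA, the same on both strands) and CArG boxes. Of the 33 members tested, 22 had a single promoter in RefSeq (GRCr8), and members with several or none were left out. In the 250 bases before the start a CRE was found in 4: in 4 of 12 matched members that were higher, 0 of 2 that were lower and 0 of 8 that were not called, against 1.59% of all 33469 promoters. A CArG box was found in 2 of 12, 0 of 2 and 2 of 8, against 1.5% of all. The 130 bases before the start are shown for Ier2 (chr19:40399243-40399372, plus strand) and Dusp1 (chr10:17184723-17184852, plus strand), since both were among the most changed members, with the CRE in capitals.
Ier2: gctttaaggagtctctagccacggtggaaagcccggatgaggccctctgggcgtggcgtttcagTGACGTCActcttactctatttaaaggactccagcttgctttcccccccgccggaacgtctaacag
Dusp1: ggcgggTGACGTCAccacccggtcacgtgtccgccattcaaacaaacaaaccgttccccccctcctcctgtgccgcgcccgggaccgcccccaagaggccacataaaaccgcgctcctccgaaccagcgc

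Interferon-stimulated genes had 14 of 35 members higher and 5 lower, with a median log2 fold change of 0.48. The number lower was 3 without control replicate 4 or 5 or TAA control replicate 12 or 13, and with all 32 libraries in 1 fit 7 were higher and 2 lower. Beside Mx1, the antiviral gene Mx2 was at 71.8, 89.8, 52.998, 48.7 and 72.8 CPM in control and 227, 186, 248, 238 and 244 CPM in TAA control, with no overlap (log2 fold change 1.79, adjusted p = 2.44e-05). Cxcl10, a chemokine that attracts T cells, was at 1598, 2008, 1796, 1103 and 1434 CPM in control and 4682, 3539.7, 3465, 4807 and 4859 CPM in TAA control (log2 fold change 1.44, adjusted p = 0.000108). Irf7, the transcription factor that amplifies the interferon response, was at 193, 244, 205, 209 and 229 CPM in control and 386, 381, 381, 533 and 535 CPM in TAA control (log2 fold change 1.03, adjusted p = 0.000108, not called with all 32 libraries in 1 fit), and Ifi44l was at 13.8, 20.4, 15.3, 14.3 and 19.5 CPM in control and 44.2, 36.3, 40.4, 36.1 and 38.1 CPM in TAA control (log2 fold change 1.24, adjusted p = 2.87e-05). Irf7 was highest in TAA control replicates 14 and 15, while the 5 libraries of TAA control were close to each other for Ifi44l. Not all members were higher: Isg15, a ubiquitin-like protein, had a log2 fold change of 0.52 (adjusted p = 0.0295) that was not called, and Rsad2, the antiviral enzyme viperin, was lower (log2 fold change -0.89), with control replicate 5 the highest library, and was not called with replicates 14 and 15 averaged.

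The core of the interferon-stimulated response element (GAAA, any 2 bases and GAAA again, searched on both strands) was looked for in the promoters of these genes. Of the 35 members tested 27 had a single promoter in RefSeq (GRCr8), members with several or none being left out. Of these 27, 18 held the core in the 250 bases before the start, against 3.41% of all promoters. The split by call was 7 of 9 higher, 3 of 5 lower and 8 of 13 not called, so the element was found in members of all 3 kinds. The 130 bases before the start are shown for Irf7 (chr1:205800024-205800153, minus strand), Ifi44l (chr2:243328593-243328722, plus strand) and Oas1a (chr12:41330336-41330465, plus strand, log2 fold change 0.75), to show how the element is placed in genes that were higher, Oas1a having been chosen after its values were seen. Capitals mark the core on either strand, and in Oas1a there are 2 overlapping matches.
Irf7: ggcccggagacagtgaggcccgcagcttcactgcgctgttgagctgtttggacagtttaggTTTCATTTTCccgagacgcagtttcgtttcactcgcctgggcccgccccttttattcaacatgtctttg
Ifi44l: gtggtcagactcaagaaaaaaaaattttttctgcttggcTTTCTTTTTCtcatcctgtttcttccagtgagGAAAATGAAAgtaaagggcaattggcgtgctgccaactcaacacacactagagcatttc
Oas1a: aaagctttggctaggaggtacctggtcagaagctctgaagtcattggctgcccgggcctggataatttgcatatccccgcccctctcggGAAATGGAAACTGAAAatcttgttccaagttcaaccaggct

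Chemokines and cytokines were split evenly, with 11 of 34 members higher and 11 lower. Those lower included, beside Ccl21, the chemokine Cxcl14 at 5.25, 12.1, 7.36, 5.07 and 13.9 CPM in control and 0.339, 0.267, 0.165, 0.316 and 0.359 CPM in TAA control (log2 fold change -4.79, adjusted p = 0.00023) and the cytokine Il6 at 13.8, 24.95, 13.5, 16.5 and 17.9 CPM in control and 0.849, 0.701, 0.329, 1.70 and 1.99 CPM in TAA control (log2 fold change -4.22, adjusted p = 4.58e-05). Those higher were led by Xcl1 and Ccl5, both made by T and NK cells, whose markers were higher in the same libraries, and the part of these cells in the chemokine results was not tested. Toll-like receptor and NF-kappaB genes had 5 of 33 members higher (3 without control replicate 1) and 3 lower (5 with replicates 14 and 15 left out), against 12.7% and 14.9% over all genes tested. Tlr9, a sensor of DNA, was higher (log2 fold change 0.95) and lost its call without control replicate 1 or TAA control replicate 14 or 15. Tlr7, a sensor of single-stranded RNA, was at 1.69, 2.59, 4.35, 0.493 and 1.22 CPM in control and 5.91, 5.41, 3.46, 26.5 and 27.7 CPM in TAA control, and replicates 14 and 15 were well above all other libraries. Its call (log2 fold change 2.48, adjusted p = 0.0388) was lost without any 1 of the 5 control libraries. Nfkbiz, a nuclear regulator of NF-kappaB, was higher (log2 fold change 1.61), and Tlr4, the receptor for bacterial lipopolysaccharide, was not called (log2 fold change 0.55, adjusted p = 0.00476).

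Cell cycle genes were lower in 24 of 39 members and higher in 0, with a median log2 fold change of -1.05. With replicates 14 and 15 averaged 19 were lower, and with both left out 8. Mki67, the Ki-67 antigen of dividing cells, was at 104, 82.6, 31.2, 88.8 and 66.9 CPM in control and 27.3, 41.2, 31.2, 26.97 and 24.1 CPM in TAA control. Control replicate 3 lay within the TAA control range, and the other control libraries were above it (log2 fold change -1.22, adjusted p = 0.00586). The centromere protein genes Cenpf and Cenpe were lower (log2 fold changes -1.94 and -1.48). Top2a, Bub1b and Nusap1, which serve DNA untangling, the spindle checkpoint and the spindle, had log2 fold changes of -1.51, -1.48 and -1.39 and were not called with both replicates left out.

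In the list of fatty acid handling 10 of 37 members were lower and 0 higher (median -0.34), led by Lpl, the lipoprotein lipase that frees fatty acids at the capillary wall, at 17.4, 29.3, 18.4, 44.8 and 35.4 CPM in control and 2.48, 1.43, 0.362, 1.82 and 1.67 CPM in TAA control (log2 fold change -4.38, adjusted p = 0.000202), and Angptl4, its inhibitor, lower (log2 fold change -1.93). Called members made up 27% of the fatty acid list and 24% of the cholesterol list, all of them lower. Over all genes tested 27.6% were called and 14.9% were lower. In cholesterol synthesis and uptake 6 of 25 were lower and 0 higher (median -0.27), and 1 was lower with all 32 libraries in 1 fit. The late enzyme gene Dhcr7 was lower here (log2 fold change -0.91) and was not called in that fit. In hypoxia and glycolysis 11 of 35 were lower and 1 higher (median -0.39). The oxygen sensor gene Egln3 was lower (log2 fold change -1.88), and Adm, which encodes the vasodilator adrenomedullin, was higher at 9.44, 25.2, 26.8, 12.8 and 18.6 CPM in control and 53.8, 68.03, 65.3, 44.2 and 44.3 CPM in TAA control (log2 fold change 1.65, adjusted p = 0.000535). Oxidative phosphorylation had 0 of 64 members called by limma-voom, 0 at an unadjusted p under 0.05 with the same fold, and 0 by edgeR and DESeq2, with a median of 0.02. Without the fold threshold 9 of the 64 passed. The cytosolic ribosomal proteins had 1 of 66 lower, Rpl10a (-0.64), and the median was -0.32. Of the 66, 41 lay below the control range without overlap, against 17.4% of all genes tested.

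Responses to stress were mixed. Among NRF2 target genes 7 of 27 were lower and 4 higher. Nqo1, a quinone reductase, was at 45.2, 43.1, 57.5, 129 and 100.2 CPM in control and 20.9, 24.9, 21.1, 37.1 and 39.9 CPM in TAA control, highest in control replicates 4 and 5 (log2 fold change -1.31, adjusted p = 0.00714), the extracellular dismutase gene Sod3 was lower (log2 fold change -2.60), and Gpx3, a secreted glutathione peroxidase, was higher (log2 fold change 1.64). The 8 genes of the aryl hydrocarbon receptor list had 4 lower and 1 higher (0 without control replicate 3 or 5 or TAA control replicate 13), and Cyp1b1 was at 21.1, 23.5, 10.2, 52.5 and 57.5 CPM in control and 1.36, 1.57, 1.02, 3.67 and 3.95 CPM in TAA control (log2 fold change -3.83, adjusted p = 0.00246). The unfolded protein response had 2 of 33 lower and 2 higher, or 12.1% called, under the 27.6% called over all genes tested. Without control replicate 3 or without TAA control replicate 12, 7 of its members were called in all. Targets of p53 and CDK inhibitors had 8 of 24 lower (5 without control replicate 5) and 5 higher, with the inhibitor gene Cdkn2b lower (log2 fold change -2.77), and Btg2 and Gdf15, an antiproliferative factor and a stress cytokine, higher (log2 fold changes 1.97 and 1.67). Lysosome genes had 5 of 47 higher and 3 lower, and clock genes 7 of 17 lower and 4 higher, against 12.7% higher and 14.9% lower over all genes tested. Arntl, which drives the clock, was at 44.2, 28.7, 30.5, 27.3 and 19.6 CPM in control and 66.9, 53.6, 61.2, 70.999 and 70.5 CPM in TAA control (log2 fold change 1.15, adjusted p = 0.000442), and of the repressors Per1 was higher (log2 fold change 1.07) and Per2 lower (log2 fold change -1.42). The hour at which cells were taken is not given in the sources used here.

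**Figure D5:**
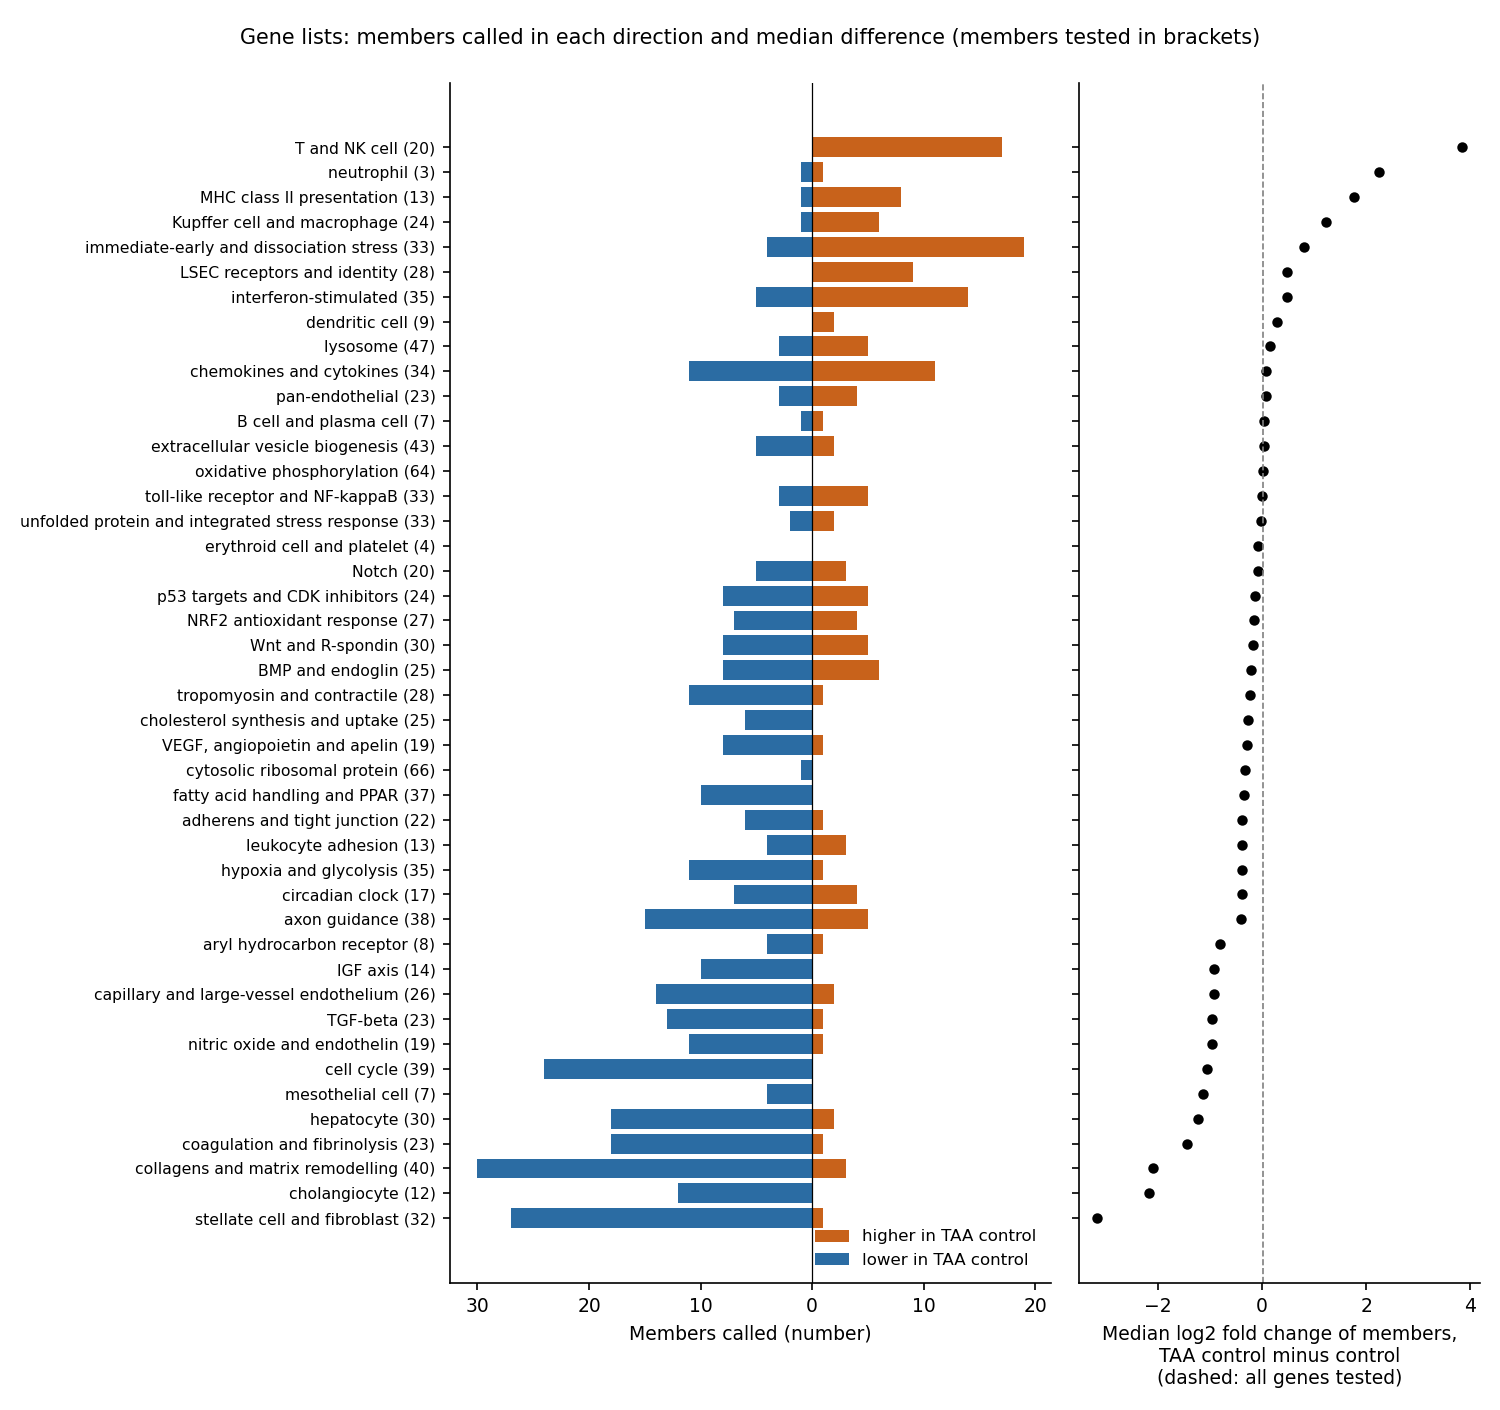
Number of members called higher (orange, to the right) or lower (blue, to the left) in TAA control for each of 44 gene lists with the number tested in brackets, and, at the right, the median log2 fold change of the members beside that of all genes tested (dashed, 0.03). The list medians run from -3.16 for stellate cells and fibroblasts to 3.83 for T and NK cells, and 0 of 64 genes of oxidative phosphorylation were called.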

How the data were processed

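RNA sequencing libraries of rat LSECs were compared, 5 labelled control and 5 labelled TAA control. The deposited values used were the expected counts per gene that the authors made with RSEM, which need not be whole. The submitters' processing notes name FastQC, Trim Galore, STAR, RSEM and limma and the build Rnor 6.0, with no role or version given. Whether counting used strand is not given in the sources used here. Counts were rounded, genes with low counts were removed with filterByExpr, library sizes were scaled by TMM, and 14376 genes were tested with limma-voom (R 4.3.3, limma 3.58.1, edgeR 4.0.16), with p-values adjusted by the Benjamini-Hochberg method over all of them. A gene was called at an adjusted p under 0.05 and a fold above 1.5. CPM values were computed from the deposited expected counts with TMM-scaled totals. Totals of 25646531 to 32631606 counts per library set the precision, and genes under about 1 CPM in a group have the largest errors.

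Named genes were the 15 largest rises and falls among called genes that averaged 3 or more in log2 CPM and whose groups did not overlap, up to 5 called members per list with the largest change, and defining markers. The largest rises and falls also had to be called with replicates 14 and 15 averaged. Other list members named in the text, and Hgf, Pdpn, Prox1 and Oas1a, were chosen after their values were seen. The comparison and the 44 gene lists were chosen with earlier results of these data known. Alternatives were edgeR's quasi-likelihood test, DESeq2 (1.42.0), other scalings and filters, library quality weights, replicates 14 and 15 averaged, all 32 libraries in 1 fit, each library left out, and, added after the data were seen, both of those replicates left out. On simulated counts limma-voom recovered 90 of 100 genes changed by 2-fold and 99 of 100 changed by 4-fold among 14149 tested, with 4 false calls. The simulation gave every gene the same dispersion, changed far fewer genes than were called here and held no nearly identical pair of libraries. It checks that the procedure runs correctly and does not give its power in these libraries. Promoter sequences are from RefSeq (GRCr8) and were matched by symbol, and no coordinates of the 2 builds were combined. List members with several promoters or none were left out, whereas the shares over all promoters were not limited in this way. Figures were drawn with matplotlib 3.10.9 (Python 3.11.15).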

Additional observations from a re-analysis of the deposited data

Results flagged for a closer look

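A library was looked at again when, in a group of 5, its gap to the nearest other library was above 0.71 of the group's whole range. For single genes the gap and the range were taken on the log2 scale of CPM plus 0.5, although levels are printed in CPM. Over 108 sets of 5 values this gave 4, and chance alone gives about 1 in 20. The total count of control replicate 5 was 32631600, against 27589200 to 28485800 in the other control libraries (gap 0.822 of the range). The laminin gene Lamb1 was at 1.25 CPM in TAA control replicate 13 and at 2.80 to 3.63 CPM in the others of its group (0.74). The collagen gene Col1a1 was at 123 CPM in control replicate 3 and at 204 to 243 CPM in the other control libraries (0.742). The summed level of the neutrophil list was 12.6 CPM in control replicate 4, against 4.56 to 6.52 CPM in the others of its group (0.757). The calls of Lamb1 and Col1a1 were kept without each of these libraries.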

How the results depend on the processing

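The number of genes called lay between 3383 and 4662 over the other tests, scalings, filters and treatments of replicates 14 and 15 (4024 by edgeR, of which 3839 were shared, 4061 by DESeq2, 4662 of 22229 genes with no filter on low counts, 3383 of 12903 with a stricter one). With an adjusted p under 0.05 and no fold threshold, 7139 genes passed, 3724 higher and 3415 lower, because smaller changes are then admitted. The share of called genes that were higher was 46% and lay between 42.7% and 49% under the other scalings. Leaving out single libraries gave 3640 to 4134 called genes, 1639 to 1887 higher and 2001 to 2264 lower. With both replicates 14 and 15 left out, 3754 were called and 3294 were shared. The log2 fold change of Mvb12b, at -0.01, changed sign without being called: it was 0.00497 with library quality weights, 0.0202 with upper-quartile factors, 0.00988 with replicates 14 and 15 averaged, 0.0422 with both left out, and -0.0851 to 0.0478 with single libraries left out, above 0 in 4 of the 10 omissions. Of 207 named genes, edgeR kept 200 and DESeq2 201 on the same side of the thresholds, all 32 libraries in 1 fit (3569 called) kept 188, replicates 14 and 15 averaged 195, and both left out 185. The rule for naming the largest rises and falls required a call with the pair averaged, so their part of the 195 was fixed in advance. The omissions of single libraries kept 193 to 203. No paired analysis was possible because the groups share no replicate numbers. Genes under about 1 CPM in a group rest on few reads, so the size of their fold changes is uncertain.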

Other observations

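Of the genes of lymphatic endothelium looked at after Ccl21 and Mmrn1 had been seen, Pdpn and Prox1 were lower, and Flt4 and Lyve1 were not called. Pdpn, which encodes the lymphatic surface protein podoplanin, was at 9.30, 9.92, 10.2, 41.0004 and 28.6 CPM in control and 0.272, 0.0334, 0.0658, 0.355 and 0.359 CPM in TAA control. As for Ccl21, control replicates 4 and 5 were the highest and the groups did not overlap (log2 fold change -6.58, adjusted p = 0.00261 by limma-voom). Prox1, the transcription factor that sets lymphatic identity, was at 37.7, 53.4, 46.98, 74.4 and 46.2 CPM in control and 11.2, 15.9, 9.71, 16.9 and 15.02 CPM in TAA control (log2 fold change -1.92, adjusted p = 6.07e-05). Flt4, the receptor for VEGF-C, was at 750.2 to 865 CPM in control and 868 to 1191 CPM in TAA control and was not called (log2 fold change 0.36, adjusted p = 0.0113). Lyve1, which LSECs also express, was not called either (log2 fold change 0.56). Flt4 and Lyve1 are both on the list of LSEC genes used above, so they cannot show whether lymphatic genes moved together.

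Levels of some of the genes named above are given here for the other groups of the series, with all 32 libraries scaled together and no test. Other genes were looked at in the same way and are not given. Median Ccl21 was 963 CPM in the 6 libraries labelled CCL4 treated rat (536 to 2287), 3.72 CPM in the 6 labelled Untreated rat (1.26 to 7.46), 0.357 CPM in the 5 labelled as treated for 2 weeks (0.256 to 0.443), 0.778 CPM in the 5 labelled as treated for 6 weeks (0.3003 to 1.76), 609.5 CPM in control and 2.37 CPM in TAA control. Median Ednrb was 794 CPM in CCL4 treated rat (444 to 1292) and 51.8 CPM in Untreated rat (27.1 to 80.3), 18.6 CPM after 2 weeks of treatment and 33.4 CPM after 6 weeks, beside 1089 CPM in control and 36.0 CPM in TAA control. Median Prf1 was 11.1 CPM in CCL4 treated rat (6.00 to 16.6) and 32.6 CPM in Untreated rat (7.62 to 212), whose ranges overlapped, 1.41 CPM after 2 weeks of treatment and 1.33 CPM after 6 weeks, beside 2.07 CPM in control and 57.6 CPM in TAA control. Median Fos was 1850.4 CPM in CCL4 treated rat and 2124 CPM in Untreated rat, with overlapping ranges, 5.92 CPM after 2 weeks of treatment and 13.5 CPM after 6 weeks, beside 1158 CPM in control and 4669 CPM in TAA control. For Selp the median was 1260 CPM in CCL4 treated rat (836 to 1663) and 537 CPM in Untreated rat (130 to 892), with overlapping ranges. It was 31.3 CPM after 2 weeks of treatment and 122 CPM after 6 weeks, beside 302 CPM in control and 50.3 CPM in TAA control. Unlike for Ccl21 and Ednrb, the Selp median of Untreated rat was above that of control. These groups come from separate experiments, and the levels were not used to infer which rats received TAA.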
